A study of Mus musculus with 6 samples.

Results

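The kinesin genes of the mouse T cell line D10 were examined after 24 h at 26°C and after 24 h at 37°C. Members were the protein-coding genes of the deposited table whose symbol is Kif followed by a digit, Kifc or Kifbp, which gave 44 of the 41079 genes listed. From what their proteins are known to do, 14 were placed among mitotic and cytokinetic kinesins, 18 among transport kinesins and 12 under other roles. D10 is 1 cloned line of CD4+ helper T cells, originally raised against conalbumin, so the libraries describe 1 clone. Control cells (non-acclimated, n = 3) stayed at 37°C, and cold-acclimated cells (n = 3) were kept at 26°C for the same time, and the labels give no other agent or genetic change in either group. The labels and the methods name different growth media, so the medium is uncertain.

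Kinesins are motor proteins that use ATP to move along microtubules or to take them apart at their ends. In dividing cells a set of them builds the bipolar spindle, moves chromosomes and closes the cell in cytokinesis, and the genes of this set are mostly transcribed in late cell cycle stages. Other kinesins work at all stages and carry mitochondria, vesicles and other cargo, which in T cells includes lysosomes, lytic granules and signalling proteins near the immune synapse.

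All values are TPM, in which the authors divided the reads of each gene by its length and scaled every library to a total of 1000000, so that levels of different genes can be set side by side. Read numbers recovered from the steps of the TPM values came to between 16899628 and 31290854 per library, and every tested kinesin had at least 27 reads in each library. The test was limma on log2(TPM + 1) over 12227 genes whose TPM averaged 1 or more. A call needed a p under 0.05 after Benjamini-Hochberg adjustment and a log2 fold change of 1 or more in either direction. The median of all tested genes was itself lower at 26°C, by a log2 fold change of -0.34, and moved to 0.02 when libraries were rescaled by the median of their gene ratios. Cold-acclimated replicate 3 stood apart from the other cold-acclimated libraries at the mitotic kinesins, so values without both libraries of replicate 3 are given beside the results that differ there. This omission was chosen after seeing these genes and leaves 2 libraries per group. Its smaller p values follow in part from that choice and are no independent support. Libraries of the same replicate number varied together. The calls, standard errors and intervals come from the fit without a replicate term, which leaves this pairing out. The fit with the term is given where it changed a call. Of 9 T cell markers, 8 had a mean TPM of at least 1, although Thy1 was listed at 0. None of 6 B cell markers and 2 of 6 macrophage markers reached that level, and their summed levels were at most 1.11 and 21.2 TPM.

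Of the 44 kinesins, 28 were measured well enough to test, namely 13 mitotic, 11 transport and 4 other members. Without the replicate term, 6 of these 28 were downregulated at 26°C and 0 were upregulated. Of all tested genes 16.0% were called downregulated and 2.63% upregulated. The 6 were the mitotic Kif2c and Kif14, the transport kinesins Kif3c and Kif1b, Kif24, and Kifbp, which binds kinesins without being a motor. On the adjusted p alone, 8 were lower and 1 was higher at 26°C in limma, beside 17.4% and 3.30% of all tested genes, and at an unadjusted p under 0.05 limma passed 18 of the 28, beside 37.7% of all tested genes. With the replicate number as a term in the limma fit, 12 were called downregulated and 0 upregulated against backgrounds of 21.9% and 3.75%, the added members being Kif11, Kif15, Kif20a, Kif20b, Kif22 and Kifc5b. With the replicate term and median of ratios scaling together, these 6 were again not called (limma adjusted p from 0.054 for Kif20b to 0.10 for Kifc5b). When both libraries of replicate 3 were left out, a choice made after seeing the data, 19 members were called downregulated and 0 upregulated. The backgrounds were 25.3% and 5.34%, and 12 of the 19 were mitotic. Without cold-acclimated replicate 3 alone, 18 were called downregulated and 0 upregulated (backgrounds 22.3% and 3.75%), again with 12 mitotic members. Median of ratios scaling gave 5 downregulated members and 1 upregulated member, where 8.79% and 6.56% of all tested genes were called. With all libraries, 2 of the 13 mitotic members were called without the replicate term and 8 with it. The replicate term and median of ratios scaling together gave 2, where 1544 of all 12227 tested genes were called downregulated.

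Summed over the 14 mitotic genes, the level was 1039, 1031 and 846 TPM in non-acclimated replicates 1, 2 and 3, and 264, 147 and 892 TPM in cold-acclimated replicates 1, 2 and 3. Cold-acclimated replicates 1 and 2 lay far under all control libraries, while cold-acclimated replicate 3 lay within the control range. The summed level of the 18 transport genes was 272, 286 and 258 TPM at 37°C and 266, 278 and 280 TPM at 26°C. These sums overlapped in full, but they do not mean that each gene was unchanged. Kif5b made up 110.8, 110.8 and 109.5 TPM of them at 37°C and 180.5, 172.1 and 173.4 TPM at 26°C. Of the 11 tested transport members, 8 were lower at 26°C in all 3 replicate pairs and 2 were higher, beside 47.9% and 18.2% of all tested genes. The mitotic genes took 74.8%, 73.5% and 71.6% of all kinesin TPM at 37°C, and 46.5%, 31.0% and 73.2% at 26°C. In bulk RNA, fewer cells in division and less of these transcripts per cell cannot be told apart.

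**Figure D1:**
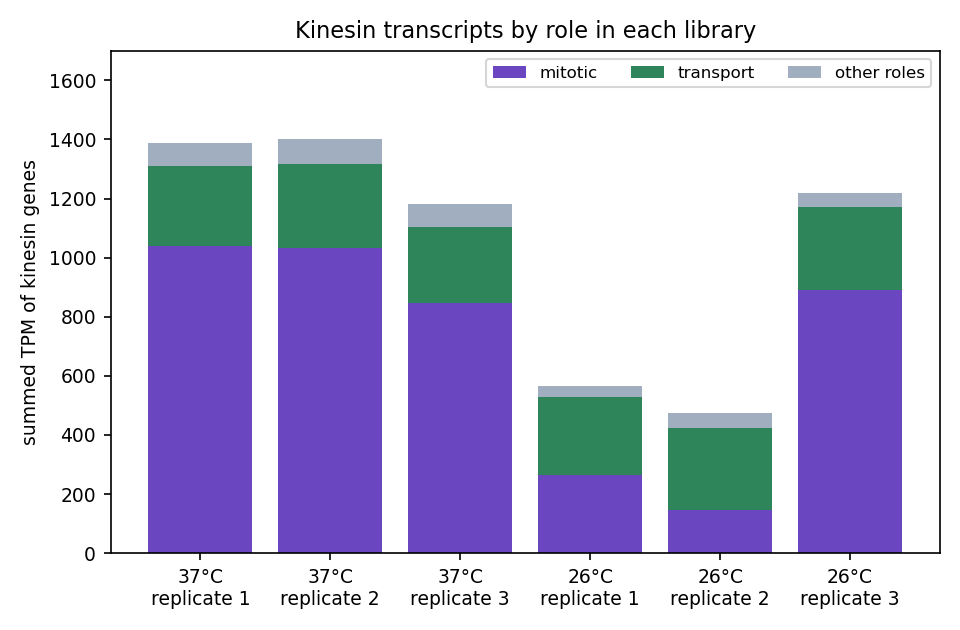
Summed TPM of the 44 kinesin genes in each library (vertical axis, TPM), stacked by role, with 1 bar per library and no error bars. The mitotic part is 264 and 147 TPM in cold-acclimated replicates 1 and 2 but 892 TPM in cold-acclimated replicate 3, while the transport part stays between 258 and 286 TPM in all 6 libraries. The transport part includes Kif5b, which is higher at 26°C, while most other tested transport members are lower there.

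In the values by library that follow, the order is replicates 1, 2 and 3. Kif11, the motor that slides antiparallel microtubules apart to form a bipolar spindle, had the highest mean level of all kinesins at 37°C. Its level was 176.6, 145.5 and 142.7 TPM at 37°C and 32.1, 19.7 and 122 TPM at 26°C. The conditions did not overlap, but cold-acclimated replicate 3 was close to the controls. The log2 fold change of Kif11 was -1.82 ± 0.60 (SE), with an adjusted p of 0.066 in limma, 0.027 with the replicate term and 0.0039 without replicate 3. Kif15, which can share this task, had 84.0, 73.3 and 59.4 TPM at 37°C and 18.8, 9.08 and 48.7 TPM at 26°C. Its conditions did not overlap either, and its log2 fold change of -1.76 had an adjusted p of 0.054 in limma and 0.028 with the replicate term. Without replicate 3 it was -2.49 with a limma adjusted p of 0.0061.

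Kifc1 and Kifc5b are minus-end-directed motors that focus spindle poles. Kifc1 was at 80.4, 75.6 and 78.7 TPM at 37°C and at 16.7, 9.27 and 88.0 TPM at 26°C. Kifc5b was at 52.5, 48.6 and 58.9 TPM at 37°C and at 12.8, 7.36 and 61.5 TPM at 26°C. In both genes cold-acclimated replicate 3 was above every control library, so the conditions overlapped, and the limma adjusted p was 0.13 for Kifc1 and 0.15 for Kifc5b. With the replicate term it was 0.053 and 0.050 (0.0497 before rounding), so that only Kifc5b passed. Without replicate 3 both passed, Kifc1 at -2.55 (limma adjusted p 0.0045) and Kifc5b at -2.26 (limma adjusted p 0.0054). The longest coding transcripts of this pair are identical at 96.8% of 2446 aligned bases, and how reads were split between them is uncertain.

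Kif2c, which removes tubulin from microtubule ends at centromeres and helps to correct faulty attachments, had the largest difference of the tested kinesins on the log2(TPM + 1) scale. By the ratio of mean TPM, Kif14 (0.157), Kif24 (0.182) and Kif3c (0.184) were further down than Kif2c (0.203). Its level was 80.0, 78.2 and 53.3 TPM at 37°C and 8.35, 3.57 and 31.1 TPM at 26°C. All cold-acclimated libraries were below all controls, including replicate 3. The gene lies at chr4:117016830-117039821 of GRCm39 on the - strand. Kif2c fell by 2.66 on the log2 scale (SE 0.65), with an adjusted p of 0.028 in limma. That call ended when non-acclimated replicate 1 or 2 or cold-acclimated replicate 1 or 2 was omitted, and the adjusted p in limma then lay between 0.072 and 0.097.

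Kif22 and Kif4 are chromosome arm motors that push chromosomes towards the spindle equator. Kif22 was at 131.4, 210.7 and 110.3 TPM at 37°C and at 28.8, 25.3 and 104.2 TPM at 26°C, with a log2 fold change of -1.75 and adjusted p of 0.057 in limma and 0.038 with the replicate term. Kif4 was at 46.5, 43.1 and 43.2 TPM at 37°C and at 16.4, 7.95 and 67.9 TPM at 26°C. Kif22 was just below the controls in cold-acclimated replicate 3, whereas Kif4 was above all of them there and was not called (limma adjusted p of 0.30). Without replicate 3 the log2 fold change was -2.58 for Kif22 and -1.87 for Kif4, with limma adjusted p of 0.0039 and 0.013. Kif18a and Kif18b, which dampen chromosome movements and limit the length of spindle microtubules, were likewise highest of the cold-acclimated libraries in replicate 3. Kif18a was at 20.1, 18.1 and 10.3 TPM at 37°C and at 7.60, 3.17 and 16.2 TPM at 26°C, and Kif18b was at 87.0, 71.8 and 70.1 TPM at 37°C and at 28.0, 12.4 and 92.9 TPM at 26°C. Both overlapped between conditions, with limma adjusted p of 0.22 and 0.20, which were 0.021 and 0.014 without replicate 3 at log2 fold changes of -1.75 and -2.02.

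Kif14, at chr1:136394044-136483676 of GRCm39 on the + strand, works in the last steps of cytokinesis. Its level was 25.6, 22.7 and 17.7 TPM at 37°C and 2.25, 1.02 and 7.07 TPM at 26°C, without overlap. Kif14 fell by 2.60 on the log2 scale (SE 0.50), with an adjusted p of 0.015 in limma, and within replicate 3 alone the difference was -1.21. The call ended without non-acclimated replicate 1 or 2 or cold-acclimated replicate 1, with limma adjusted p from 0.061 to 0.063. Of the other cytokinesis motors, Kif20a brings regulators to the midzone, Kif20b acts in abscission and Kif23 forms the centralspindlin complex with Racgap1. Kif20a was at 127.3, 143.1 and 108.5 TPM at 37°C and at 38.5, 21.7 and 98.2 TPM at 26°C, and Kif20b was at 55.6, 45.6 and 48.0 TPM at 37°C and at 9.03, 5.51 and 40.2 TPM at 26°C. In both, all cold-acclimated libraries were lower than all controls. Their limma adjusted p were 0.068 and 0.069, and with the replicate term 0.039 and 0.027. Without replicate 3 the log2 fold changes were -2.18 and -2.67 with limma adjusted p of 0.0061 and 0.0039.

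Kif23 had the smallest fold change of the mitotic members. It was at 72.3, 54.8 and 45.2 TPM at 37°C and at 44.2, 20.7 and 113.9 TPM at 26°C, so cold-acclimated replicate 3 was the highest of all 6 libraries. The log2 fold change was -0.25 with a limma adjusted p of 0.79, and turned to 0.14 with median of ratios scaling, 0.001 with quantile normalization, 0.15 with voom and 0.33 without cold-acclimated replicate 2. The ratio of mean TPM was 1.04, also on the other side of equality.

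**Figure D2:**
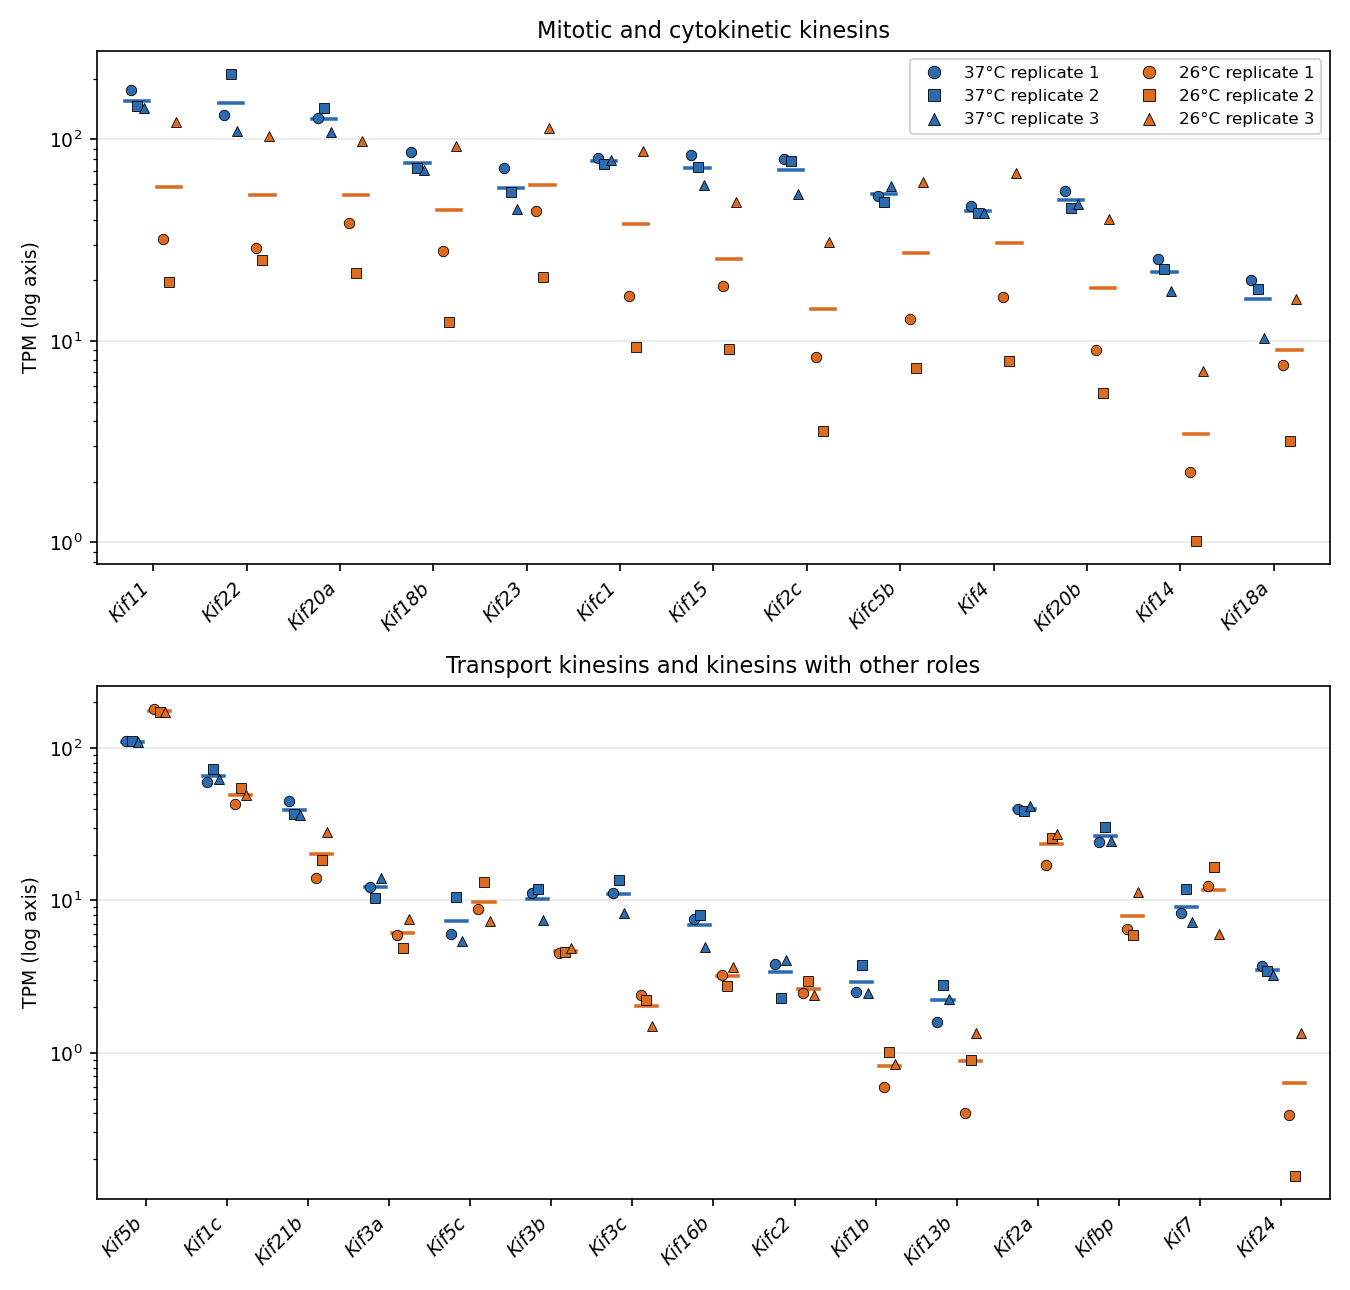
TPM of the 28 tested kinesin genes in each library (vertical log axis), mitotic members above and transport and other members below. Circles, squares and triangles are replicates 1, 2 and 3 (blue, 37°C; orange, 26°C), and bars are means of 3 libraries. The orange triangles of the mitotic members lie above both other orange points of the same gene, and Kif5b is tightly grouped at each temperature.

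Of the 28 tested kinesins, 18 were lower at 26°C in all 3 replicate pairs, as were 47.9% of all tested genes. Within replicate numbers, all 13 mitotic kinesins were lower at 26°C in replicate 1 and in replicate 2, and 7 of 13 were lower in replicate 3. Of all tested genes, 64.1%, 67.6% and 64.2% were lower in replicates 1, 2 and 3, so the mitotic count in replicate 3 was not above that share. The 6 that were higher in replicate 3 were Kif23, Kif4, Kif18a, Kif18b, Kifc1 and Kifc5b, a pattern found in 9.32% of all tested genes. The median log2 difference of the 13 was -2.10, -2.82 and -0.08 in replicates 1, 2 and 3, beside -0.32, -0.44 and -0.24 for all tested genes. A log2 difference of -1 or lower was reached by 12, 13 and 1 of the 13, where 26.5%, 30.8% and 15.3% of all tested genes reached it. In replicate 3 that member was Kif14. Without both libraries of replicate 3, Kif23 had a log2 fold change of -1.03 with a limma adjusted p of 0.091, and the other 12 ranged from -1.75 (Kif18a, limma adjusted p 0.021) to -3.62 (Kif2c, limma adjusted p 0.0037).

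**Figure D3:**
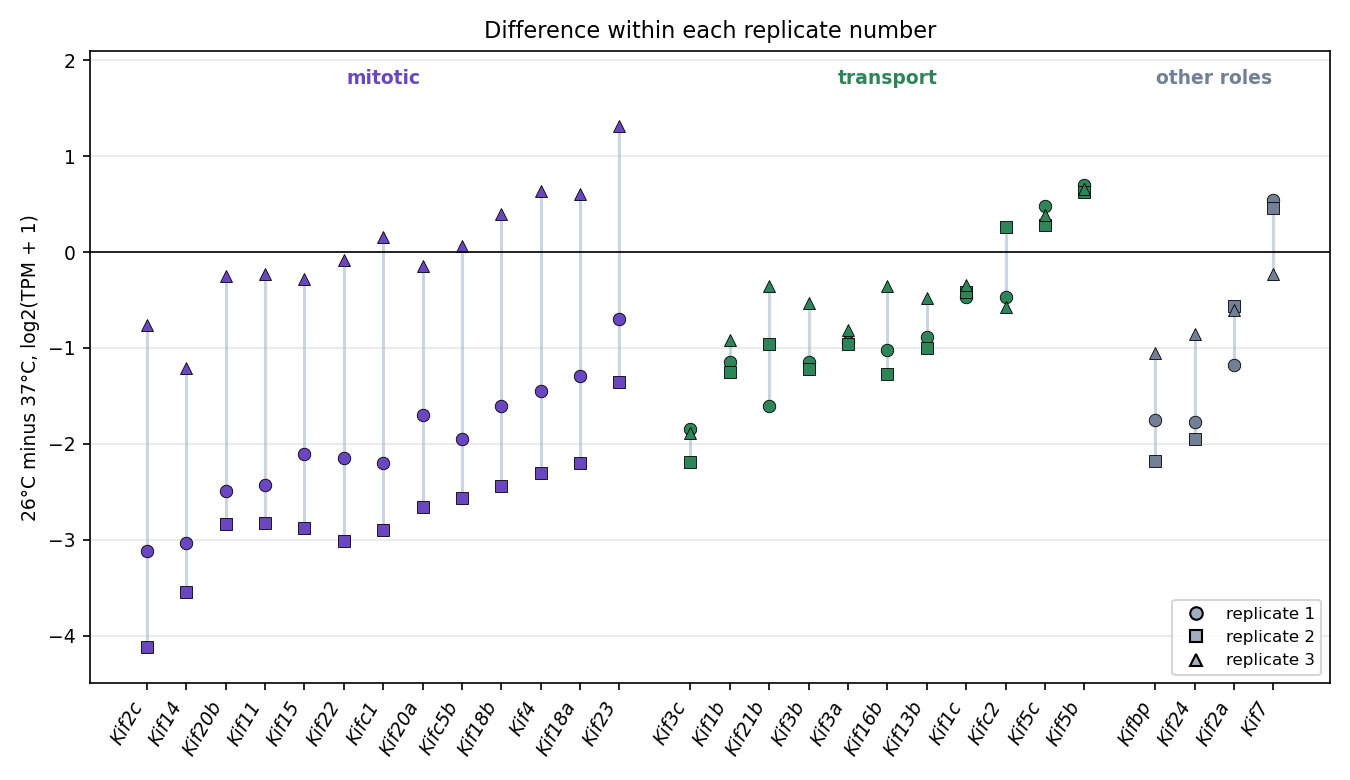
Difference between 26°C and 37°C on the log2(TPM + 1) scale (vertical axis) within each replicate number for the 28 tested kinesins, with lines joining the 3 values of a gene. The mitotic triangles (replicate 3) lie between -1.21 (Kif14) and 1.31 (Kif23) and above both other replicates in every mitotic gene, while the 3 values of Kif3c, Kif3a, Kif1c and Kif5b lie close together.

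Promoters of mitotic genes are known for 2 short elements, the cell cycle genes homology region (CHR, here TTTGAA or TTCGAA) and the CCAAT box (here CCAAT). Windows from 250 bases before to 50 bases after the transcription start were taken from RefSeq on GRCm38.p6, a build other than that of the expression data, and 34 of the 44 members had at least 1 window. Both strands were searched, and in no member window did the 2 motifs share bases. The CHR letters were found in 11 of the 12 windows of tested mitotic members (91.7%), in 0 of 8 windows of 7 tested transport members and in 1 of 5 windows of the tested other members, which was that of Kif24. Of all 32851 windows 19.2% held them, and of the 11527 windows of tested genes 14.8%. CCAAT was found in 8 of the 12 mitotic windows and in 4 of the 8 transport windows, beside 37.4% of all windows. Both motifs together were present in 8 mitotic and 0 transport windows, beside 7.52% of all windows. Shown are the called mitotic kinesins Kif2c and Kif14, the most abundant one, Kif11, the one with the smallest change, Kif23, and for contrast the called transport kinesin Kif3c, which holds neither motif. Capitals mark the motifs on either strand, and each window is written in the direction of the gene.
Kif2c, chr4:117178723-117179022, - strand: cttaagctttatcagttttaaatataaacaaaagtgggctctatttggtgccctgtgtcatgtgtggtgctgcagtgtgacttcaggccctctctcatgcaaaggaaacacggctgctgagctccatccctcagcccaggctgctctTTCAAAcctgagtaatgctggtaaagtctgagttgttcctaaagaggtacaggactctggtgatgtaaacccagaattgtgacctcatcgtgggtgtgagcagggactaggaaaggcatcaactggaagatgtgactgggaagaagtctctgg
Kif14, chr1:136467598-136467897, + strand: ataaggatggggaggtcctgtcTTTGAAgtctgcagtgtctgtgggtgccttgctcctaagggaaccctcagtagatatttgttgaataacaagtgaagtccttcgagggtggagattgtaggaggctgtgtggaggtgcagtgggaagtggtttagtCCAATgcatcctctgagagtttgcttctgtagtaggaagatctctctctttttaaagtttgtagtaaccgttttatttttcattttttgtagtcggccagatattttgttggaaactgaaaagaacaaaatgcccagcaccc
Kif11, chr19:37376132-37376431, + strand: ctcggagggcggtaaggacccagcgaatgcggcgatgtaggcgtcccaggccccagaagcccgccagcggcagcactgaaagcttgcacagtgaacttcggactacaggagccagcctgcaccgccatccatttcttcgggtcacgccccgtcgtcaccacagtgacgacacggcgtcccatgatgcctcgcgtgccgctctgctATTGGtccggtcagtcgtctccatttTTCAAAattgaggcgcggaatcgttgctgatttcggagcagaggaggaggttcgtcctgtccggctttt
Kif23, chr9:61946750-61947049, - strand: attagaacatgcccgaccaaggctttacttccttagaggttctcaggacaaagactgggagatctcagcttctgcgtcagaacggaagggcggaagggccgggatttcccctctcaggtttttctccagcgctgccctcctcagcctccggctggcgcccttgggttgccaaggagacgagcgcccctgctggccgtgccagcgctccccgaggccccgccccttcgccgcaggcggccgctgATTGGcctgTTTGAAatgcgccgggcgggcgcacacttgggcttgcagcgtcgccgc
Kif3c, chr12:3364882-3365181, + strand: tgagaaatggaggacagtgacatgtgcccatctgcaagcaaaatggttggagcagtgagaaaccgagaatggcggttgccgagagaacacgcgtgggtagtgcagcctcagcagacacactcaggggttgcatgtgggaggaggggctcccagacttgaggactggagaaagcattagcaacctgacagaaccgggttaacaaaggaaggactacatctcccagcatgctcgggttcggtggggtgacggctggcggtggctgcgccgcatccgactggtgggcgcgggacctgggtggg
In Kif11 the CHR letters begin 19 bases before the start and the CCAAT letters 45 bases before it. In Kif2c the CHR letters begin 103 bases and in Kif14 228 bases before the start. Kif23 carries both motifs close to the start although its fold change was small. Each window is that of the start in the RefSeq table, which need not be the start used in these cells. A match is a description of the letters in the window and was not tested as a binding site.

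The transport kinesins had a smaller median difference than the mitotic ones in replicates 1 and 2. Of the 11 tested, 2 (Kif3c and Kif1b) were called downregulated and 0 upregulated, a downward share close to the 16.0% of all tested genes. Without both libraries of replicate 3, 5 were called downregulated (background 25.3%), with Kif21b, Kif3b and Kif16b added. With all libraries, the median log2 fold change of the 11 was -0.88, with -0.94, -0.96 and -0.48 in replicates 1, 2 and 3. The 26°C libraries were below all 37°C libraries in 8 transport members and above them in 1, where 31.4% and 9.69% of all tested genes did so.

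Kif5b, the widely expressed heavy chain of conventional kinesin, which carries mitochondria and lysosomes, was the most abundant transport kinesin. Its level was 110.8, 110.8 and 109.5 TPM at 37°C and 180.5, 172.1 and 173.4 TPM at 26°C. Every cold-acclimated library was above every control, replicate 3 included. The ratio of mean TPM was 1.59, and the log2 fold change of 0.66 ± 0.19 (SE) had an adjusted p of 0.047 in limma, past the p threshold but under the fold threshold. With median of ratios scaling the log2 fold change was 1.06 with an adjusted p of 0.016, and Kif5b was called upregulated. Without both libraries of replicate 3 the log2 fold change was again 0.66, with a limma adjusted p of 0.051. Kif5b was the only kinesin of the 28 that passed the p threshold in the upward direction. Its share of all kinesin TPM was 7.98%, 7.91% and 9.27% at 37°C and 31.9%, 36.3% and 14.2% at 26°C.

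The other heavy chains of conventional kinesin are best known from neurons. Kif5c was at 6.01, 10.6 and 5.39 TPM at 37°C and at 8.80, 13.1 and 7.35 TPM at 26°C. It was higher at 26°C within each replicate number, by 0.48, 0.29 and 0.39 on the log2 scale, but the conditions overlapped and the limma adjusted p was 0.45. Kif5b and Kif5c were the 2 members higher in all 3 pairs, as were 18.2% of all tested genes. Kif5a was under the filter, with a highest TPM of 1.43.

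Kif3a, Kif3b and Kif3c are the motor subunits of heterotrimeric kinesin, in which Kif3a pairs with either of the others. Kif3c, at chr12:3415132-3456494 of GRCm39 on the + strand, was at 11.2, 13.6 and 8.27 TPM at 37°C and at 2.38, 2.21 and 1.50 TPM at 26°C. The groups were far apart and replicate 3 behaved as the others did. Kif3c fell by 1.98 on the log2 scale (SE 0.29) with an adjusted p of 0.0085 in limma, and Kif3c was the only kinesin whose call held whichever of the 6 libraries was left out (highest limma adjusted p 0.048). Kif3a was at 12.2, 10.4 and 13.9 TPM at 37°C and at 5.90, 4.87 and 7.50 TPM at 26°C. Kif3b was at 11.2, 11.9 and 7.43 TPM at 37°C and at 4.51, 4.57 and 4.84 TPM at 26°C. Neither overlapped between conditions, and with log2 fold changes of -0.90 and -0.97 (limma adjusted p 0.049 and 0.044) both stayed just under the fold threshold. With a pseudocount of 0.1 the values were -1.001 and -1.09, and both were called. Without replicate 3 they were -0.95 and -1.18, with limma adjusted p of 0.039 and 0.017, and Kif3b was called. At 37°C the 3 subunits were at like levels (means of 12.2, 10.2 and 11.0 TPM for Kif3a, Kif3b and Kif3c), whereas at 26°C the means were 6.09, 4.64 and 2.03 TPM, and no library of Kif3c reached the level of any library of Kif3a or Kif3b. Kifap3, which encodes the non-motor subunit of this complex, was listed at 0 in 5 libraries and at 0.020 TPM in non-acclimated replicate 3.

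Kif1b, Kif1c, Kif13b and Kif16b belong to a family of fast plus-end motors that carry vesicles, endosomes and mitochondria. Kif1b was at 2.52, 3.77 and 2.47 TPM at 37°C and at 0.593, 1.01 and 0.840 TPM at 26°C. It fell by 1.10 on the log2 scale (SE 0.29) with an adjusted p of 0.038 in limma, without overlap. Leaving out non-acclimated replicate 1 or 2 or cold-acclimated replicate 1 or 2 ended this call, with adjusted p from 0.085 to 0.13, and median of ratios scaling brought the log2 fold change to -0.86 with an adjusted p of 0.077. Kif1c, by contrast an abundant member, was at 59.9, 73.3 and 62.5 TPM at 37°C and at 43.1, 54.8 and 49.0 TPM at 26°C. Its log2 fold change of -0.41 (limma adjusted p 0.21) was near the median of all tested genes. Kif16b was at 7.58, 8.05 and 4.92 TPM at 37°C and at 3.24, 2.74 and 3.63 TPM at 26°C (limma adjusted p 0.064, or 0.022 at a log2 fold change of -1.15 without replicate 3), and Kif13b was at 1.601, 2.80 and 2.27 TPM at 37°C and at 0.406, 0.896 and 1.35 TPM at 26°C (limma adjusted p 0.12). None of these 4 overlapped between conditions.

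Kif21b, a motor that also limits microtubule growth, was at 44.8, 36.8 and 36.4 TPM at 37°C and at 14.0, 18.5 and 28.1 TPM at 26°C. All cold-acclimated libraries were lower, and the log2 fold change of -0.98 had a limma adjusted p of 0.053, or 0.037 with the replicate term, still under the fold threshold. Without replicate 3 Kif21b was called, at -1.28 with a limma adjusted p of 0.015. Kifc2, a minus-end motor, was at 3.81, 2.31 and 4.05 TPM at 37°C and at 2.47, 2.96 and 2.40 TPM at 26°C. Its levels overlapped, and its log2 fold change of -0.26 (limma adjusted p 0.56) turned to 0.035 with median of ratios scaling, 0.35 with quantile normalization and 0.019 with voom.

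Among members with other roles, Kifbp encodes a protein that binds several kinesin motors and keeps them off microtubules. It was at 24.1, 30.5 and 24.6 TPM at 37°C and at 6.48, 5.93 and 11.3 TPM at 26°C, without overlap. Kifbp fell by 1.66 on the log2 scale (SE 0.30) with an adjusted p of 0.012 in limma, and within replicate 3 the difference was -1.06. Kif24, which acts at centrioles and in the control of primary cilia, was at 3.74, 3.46 and 3.25 TPM at 37°C and at 0.392, 0.156 and 1.35 TPM at 26°C. It fell by 1.52 on the log2 scale (SE 0.35) with an adjusted p of 0.023 in limma. Each of these calls ended on omission of non-acclimated replicate 1 or 2 or of cold-acclimated replicate 1 or 2, and the limma adjusted p was then 0.051 to 0.063 for Kifbp and 0.076 to 0.089 for Kif24.

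Kif2a, a depolymerase of spindle poles and of resting cells, was at 39.9, 38.6 and 41.8 TPM at 37°C and at 17.1, 25.8 and 27.1 TPM at 26°C. The conditions did not overlap, and the log2 fold change of -0.78 had a limma adjusted p of 0.063. Kif7, a regulator of Hedgehog signalling at the tip of cilia, was at 8.21, 11.9 and 7.23 TPM at 37°C and at 12.4, 16.7 and 6.01 TPM at 26°C. It was higher at 26°C in replicates 1 and 2 and lower in replicate 3, with a limma adjusted p of 0.68, and its log2 fold change of 0.26 became -0.033 without cold-acclimated replicate 2.

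**Figure D4:**
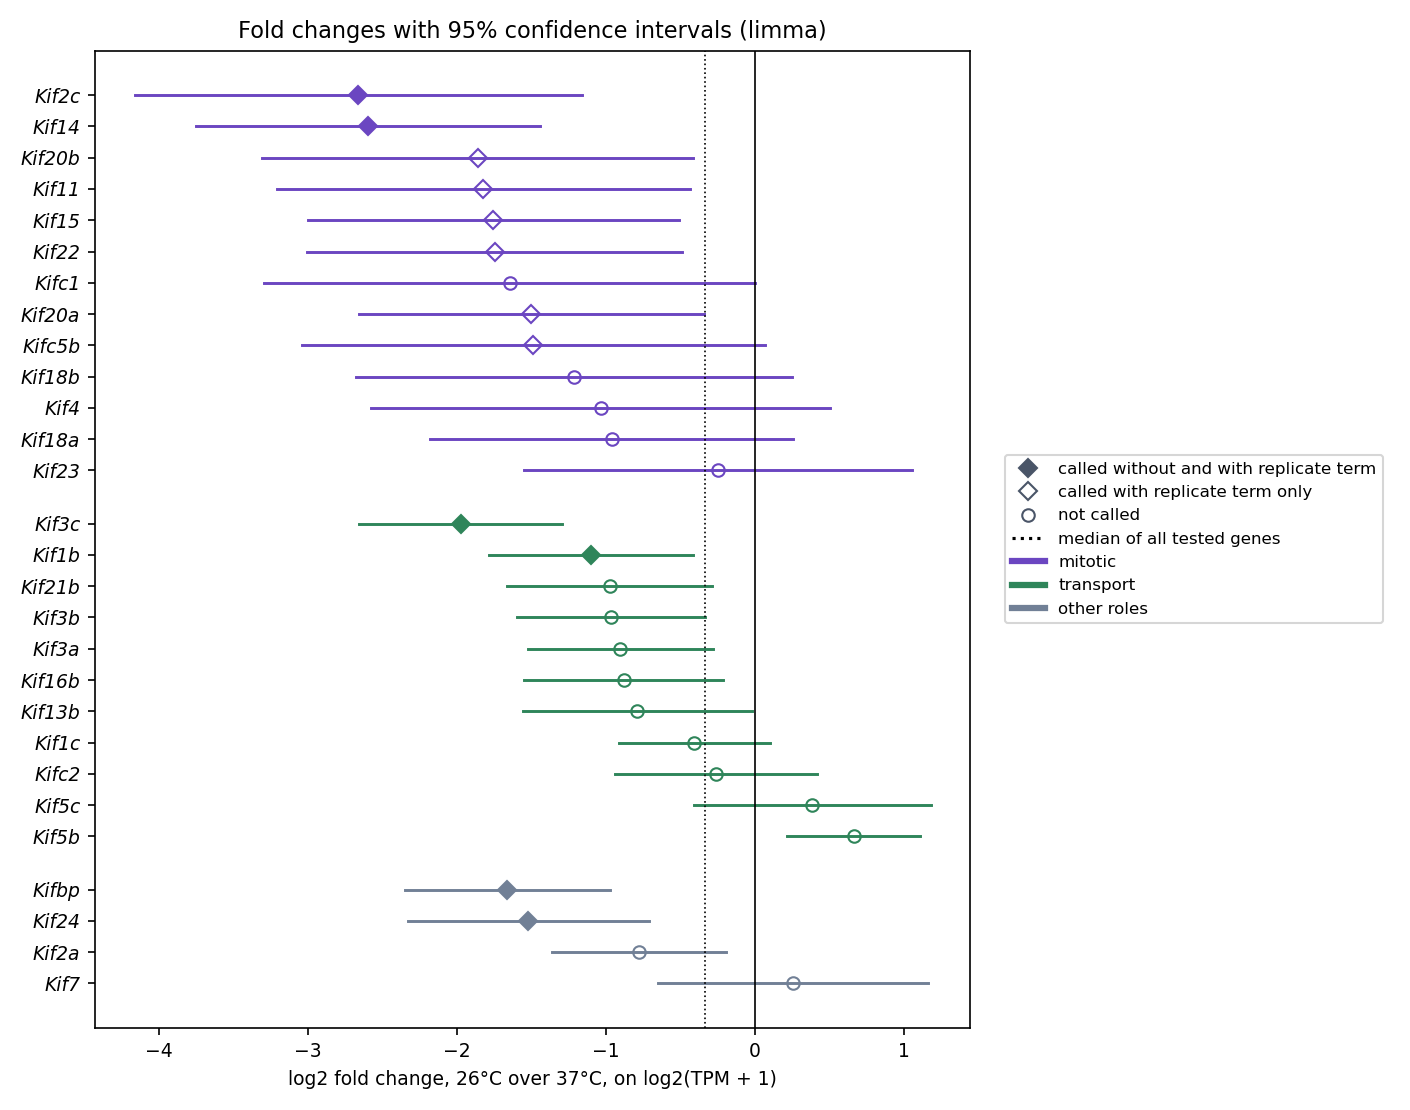
Log2 fold change (horizontal axis, 26°C over 37°C on log2(TPM + 1)) of the 28 tested kinesins with 95% confidence intervals from limma. Filled diamonds are called without and with a replicate term, open diamonds only with it, and circles in neither fit, and the dotted line is the median of all tested genes (-0.34). The intervals are wide for mitotic members (Kif11, -3.21 to -0.44) and narrower for transport members (Kif3c, -2.66 to -1.29).

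The remaining 16 members were under the filter, and 7 of them (Kif2b, Kif13a, Kif21a, Kif28, Kif12, Kif26a and Kif6) were listed at 0 in every library. Kif9 reached at most 1.37 TPM. Kifc3, Kif17, Kif1a, Kif19b, Kif27, Kif19a and Kif26b were each at most 0.187 TPM. Values of 0 are given as listed, since Thy1, a marker of mouse T cells, was also listed at 0.

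Comparing the roles, the median log2 fold change of the tested members was -1.65 for mitotic, -0.88 for transport and -1.15 for other members, beside -0.34 for all tested genes. The mitotic median minus the transport median was -0.76 on the log2 scale. Within replicates 1, 2 and 3 the difference between these medians was -1.16, -1.86 and 0.40 (SD 1.16), so it had the opposite sign in replicate 3. The ratio of summed mitotic to summed transport TPM was 3.82, 3.61 and 3.28 at 37°C and 0.991, 0.528 and 3.18 at 26°C. At 26°C the ratio in replicate 3 was close to the control range and the others were far under it.

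The order of levels also differed between temperatures. At 37°C the highest means were those of Kif11 (154.9 ± 18.8 TPM, SD, n = 3), Kif22 (150.8 ± 52.9), Kif20a (126.3 ± 17.3) and Kif5b (110.4 ± 0.752), and neighbours in this order overlapped in their library values. Kif5b was separate from the next kinesin, Kifc1 (78.2 ± 2.42 TPM). At 26°C Kif5b was first with 175.3 ± 4.51 TPM (SD, n = 3) and did not overlap with Kif23, which followed with 59.6 ± 48.5 TPM. Kif11, Kif20a and Kif22 came after it with means of 57.9, 52.8 and 52.8 TPM and overlapped with their neighbours. The SD of mitotic members at 26°C was often as large as the mean, as in Kif11 (57.9 ± 55.8 TPM) and Kifc1 (38.0 ± 43.4 TPM), with cold-acclimated replicate 3 far above the other cold-acclimated libraries.

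Genes that work with these motors were examined from lists of partners. Among 18 spindle partners of mitotic kinesins, 7 were called downregulated and 0 upregulated (16.0% and 2.63% of all tested genes), with a median log2 fold change of -1.61 and medians of -2.19, -2.85 and 0.10 in replicates 1, 2 and 3. With the replicate term 9 were called downregulated, without replicate 3 all 18 and with median of ratios scaling 4, where 21.9%, 25.3% and 8.79% of all tested genes were. The spindle partners with the smallest p were Numa1, which anchors spindle poles (log2 fold change -2.34, limma adjusted p 0.012), and Aurkb, the kinase of the chromosomal passenger complex (-2.14, limma adjusted p 0.027). Cenpe, a kinetochore kinesin without a Kif symbol, had a log2 fold change of -1.80 and a limma adjusted p of 0.059. The partners thus had the same order of replicate medians as the mitotic kinesins.

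Of 15 cargo adaptors and light chains, 13 were tested, 3 were called downregulated and 0 upregulated (background 16.0% and 2.63%), and the median log2 fold change was 0.25. Mapk8ip3, an adaptor of conventional kinesin, had a log2 fold change of 0.96 (limma adjusted p 0.025), which is under the fold threshold. Rhot2, a mitochondrial anchor of motor complexes, fell by 1.02 on the log2 scale (limma adjusted p 0.035). The light chains Klc4 (-1.42, limma adjusted p 0.039) and Klc1 (-1.06, limma adjusted p 0.042) were also called downregulated. Trak2 was higher by 0.88 (limma adjusted p 0.039), under the fold threshold. With median of ratios scaling 0 adaptors were called downregulated and 2 upregulated (background 8.79% and 6.56%). Of 28 genes of dynein and dynactin, the minus-end motor complex, 24 were tested, 2 were called downregulated and 0 upregulated, with a median log2 fold change of -0.43. The downward count is a smaller share than the 16.0% of all tested genes. The called genes were Bicd1, an adaptor (-2.16, limma adjusted p 0.0075), and Dync1i2, an intermediate chain (-1.33, limma adjusted p 0.033).

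Some members share sequence or position with other genes in ways that could touch their values. Opposite-strand genes that reached 1 TPM in a library overlap Kif20a (Brd8 and Cdc23), Kif4 (Pdzd11), Kif2a (Dimt1), Kif7 (Ticrr), Kif1c (Inca1), Kifc2 (Tmem276 and Foxh1), Kif3c, Kif5b and Kif5c, and the strand setting used in counting is not given in the sources used here. Ticrr reached 31.2 TPM, above the highest level of Kif7 itself (16.7 TPM), and Tmem276 reached 7.62 TPM, above that of Kifc2 (4.05 TPM). At Kif3c, 1110002L01Rik reached 12.95 TPM, near the highest level of Kif3c (13.6 TPM). That is above every level of Kif3c at 26°C (2.38, 2.21 and 1.50 TPM). The part of such overlaps in the values was not tested.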

How the data were processed

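RNA was sequenced from 3 non-acclimated (24 h at 37°C) and 3 cold-acclimated (24 h at 26°C) cultures of D10 cells. Per the labels and the methods, the authors prepared directional libraries from poly(A)+ RNA, aligned reads to GRCm39 with HISAT2 2.1.0, counted them per gene with featureCounts 1.6.3 and deposited TPM values. The sources used here do not give the annotation release, gene lengths or strand setting. RNA was extracted in old and new batches, and which library belongs to which is not given, so no within-batch value could be computed.

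Gene types and symbols came from the deposited table. TPM was tested as log2(TPM + 1) with limma 3.58.1 in R 4.3.3, with a mean-variance trend and no replicate term, over 12227 genes whose TPM averaged 1 or more. A fold change on this scale understates changes of low genes. The exact test over 3 against 3 libraries cannot go below p = 0.1 and was not used. Pairing of replicate numbers was checked by the correlation of library deviations from condition means. It was 0.480, 0.503 and 0.512 for equal and -0.408 to 0.019 for unequal numbers. Cultures sharing a replicate number thus varied together across the conditions. The main calls, standard errors and intervals still come from the fit without a replicate term and leave this out. Values with that term stand beside them where a call changed, and do not replace them. For a voom fit, whole read numbers were found from the TPM steps of 100% of the 21195 genes above 0 TPM, within 1e-06 reads. The search looks for whole numbers, so this share does not show that they are the true reads. Among simulated reads, 98.7% of genes had all of their reads recovered. On simulated data, limma called 196 of 200 genes changed 4-fold, and 18 others, among 12161. Only 4-fold changes were counted, so this gives no rate for smaller ones such as Kif11 (ratio of mean TPM 0.374, not called). Nor does it give a rate for genes whose cold-acclimated libraries differed as widely as those of Kif11 (57.9 ± 55.8 TPM, SD).

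Alternatives were a pseudocount of 0.1, no filter, median of ratios scaling, quantile normalization, a replicate term, voom and leaving out each library. Leaving out both libraries of replicate 3, and median of ratios scaling with the replicate term, were added after seeing the data. Every tested member is named, members under the filter by their highest TPM, and from each list of partners the 2 genes with the smallest p. Cenpe, Kifap3, Klc4, Klc1 and Trak2 are named beside them. Kif24 and Kif2a were counted as mitotic in another alternative. Members and lists were chosen with earlier results of these data known. Descriptive values came from Python 3.11.15 with numpy 2.4.6 and pandas 2.3.3.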

Additional observations from a re-analysis of the deposited data

How the results depend on the processing

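The count of 6 downregulated kinesins was within 1.5 times of itself with a pseudocount of 0.1, no filter on low values, median of ratios scaling, quantile normalization, voom and median of ratios scaling with a replicate block. It was 12 with the replicate block and 19 without both libraries of replicate 3. Leaving out 1 library at a time gave from 1 to 18. It was 1 on omission of non-acclimated replicate 1 or 2 or of cold-acclimated replicate 1. It was 2 on omission of cold-acclimated replicate 2 and 18 on omission of cold-acclimated replicate 3. In these settings, in the same order, 527, 345, 450, 600 and 2725 of all 12227 tested genes were called downregulated, beside 1954 with all libraries. The count of 0 upregulated kinesins became 1 (Kif5b) with median of ratios scaling, with voom and with median of ratios scaling together with the replicate block. The replicate block changed no call other than those of Kif11, Kif15, Kif20a, Kif20b, Kif22 and Kifc5b, which were not called when median of ratios scaling was added to it. The calls of Kif1b and Kif2c ended without the filter and those of Kif1b and Kif24 with quantile normalization. The mitotic minus transport median kept its sign in all alternatives, from -0.21 without cold-acclimated replicate 2 to -1.54 without both libraries of replicate 3. Kif23 turned to 0.14 with median of ratios scaling (also with the block), 0.001 with quantile normalization, 0.15 with voom and 0.33 without cold-acclimated replicate 2. Without other libraries Kif23 ranged down to -1.03 (both libraries of replicate 3 omitted). Kifc2 turned to 0.035 with median of ratios scaling (also with the block), 0.35 with quantile normalization and 0.019 with voom. Kif7 ranged from -0.033 to 0.63 when cold-acclimated replicate 2 or 3 was omitted. The cause was not tested.

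Over all tested genes 1954 were called downregulated and 321 upregulated, so 14.1% of calls were upward. Median of ratios scaling gave 1075 and 802 (42.7% upward), quantile normalization 765 and 731 (48.9%), voom 1167 and 718 (38.1%), and no filter 1121 and 184. The balance of directions thus depended on the scaling. The study, which normalized read counts by the median of ratios, reported more upregulated than downregulated genes. It tested read counts with DESeq2 over more genes, so its counts and these are not matched. Median of ratios scaling of TPM still gave more downregulated than upregulated genes here. In the limma fit, leaving out both libraries of replicate 3 gave 3088 downregulated and 653 upregulated genes. Leaving out 1 library gave 345 to 2725 and 59 to 459.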
